A study of Homo sapiens with 18 samples.

Results

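The 10 genes described here are BCL2L1, MCL1, BCL2A1, BCL2L11, PMAIP1, BBC3, BIK, BID and BAX of the BCL2 family, and the death receptor gene TNFRSF10B. They were chosen by name, with earlier results of these data known, and were 10 of the 60709 genes with counts. RNA was measured in MDA-MB-231, a human triple-negative breast cancer cell line. All cells carried a short hairpin RNA, directed in sh-LUC (the control) against luciferase and in sh-IGFBP6 against IGFBP6, which encodes a secreted binder of insulin-like growth factors. Treatment lasted 24 h: a vehicle medium of 0.5% DMSO plus 0.5% ethanol, 200 µM DHA (docosahexaenoic acid, an omega-3 fatty acid whose many double bonds are prone to peroxidation), or 2.5 µM erastin, which blocks cystine uptake and induces ferroptosis, an iron-dependent cell death by lipid peroxidation. The 6 groups are named sh-LUC control, sh-LUC DHA, sh-LUC erastin, sh-IGFBP6 control, sh-IGFBP6 DHA and sh-IGFBP6 erastin, and each held 3 libraries. The labels do not say whether a hairpin line is a clone or a pool, or whether the 3 libraries came from separate cultures. The p-values therefore speak to the spread among these libraries alone, and that spread may be technical.

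The BCL2 family sets the threshold for mitochondrial apoptosis. Its guardians (here BCL2L1, which encodes BCL-xL, MCL1 and BCL2A1) bind and restrain the pore-forming effectors such as BAX, and BH3-only proteins (here BCL2L11, PMAIP1, BBC3, BIK and BID, whose products are BIM, NOXA, PUMA, BIK and BID) bind guardians or effectors and lower that threshold. TNFRSF10B encodes DR5, a receptor of the ligand TRAIL at the cell surface that activates caspase-8, and caspase-8 cuts BID to connect the receptor route with mitochondria. Several of these genes are known targets of stress-activated transcription factors: CHOP, the product of DDIT3, acts on TNFRSF10B and BBC3, and ATF4 on PMAIP1.

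Total gene counts ran from 2708143 to 7977429 in 17 libraries, and the remaining library, sh-IGFBP6 erastin 3, held 609936. In that library the mitochondrial ribosomal RNA genes MT-RNR1 and MT-RNR2 took 54.4% of counts, and in the other 17 from 0.0349% to 0.504%. The genes described here had as few as 4 counts (BBC3) and at most 92 (MCL1) among those detected in it, so the fold changes of erastin-treated sh-IGFBP6 are also given without it, by gene or together. IGFBP6 stood at 12.3 to 20.9 CPM (gene counts scaled to 1e+06 by TMM library size) in the sh-LUC libraries and at 0.420 to 3.81 CPM in the sh-IGFBP6 libraries, with the highest of the latter resting on 1 count. All 6 markers of the line (VIM, CD44, KRT8, KRT18, AXL and CAV1) were present in each group, and their summed level was 4795 to 5578 CPM in sh-LUC and 2782 to 3585 CPM in sh-IGFBP6. VIM alone was higher in sh-IGFBP6 control than in sh-LUC control (1138 and 757 CPM). Of 5 markers low or absent in the line, ERBB2 averaged 69.7 to 104 CPM by group, and ESR1 and PGR at most 2.00 and 0.72 CPM. EPCAM averaged 3.90 CPM in sh-LUC control and 11.3 in sh-IGFBP6 control, and CDH1 5.97 and 0.146 CPM. Of 13 markers of leukocytes, endothelium and fibroblasts, 4 passed the filter on low counts. Their 13-gene sum was 75.7 to 86.7 CPM after vehicle, 42.9 to 51.6 after DHA and 31.6 to 37.6 after erastin in sh-LUC, and at most 15.9 CPM in every sh-IGFBP6 library. Most of it was COL1A1 and PDGFRB, while 3 to 7 of the 13 had no counts in a group, among them the leukocyte marker CD3E in the sh-IGFBP6 groups. The part of these markers in the results below was not tested. In bulk RNA, fewer cells of a type and less RNA per cell cannot be told apart.

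For 7 of the 10 genes a start site window was matched in the RefSeq promoter table (GRCh38.p14; 300 bases, 250 before the start and 50 from it on), giving 12 windows. Windows of 5 genes are shown here because BCL2L11, PMAIP1 and BBC3 were all higher after erastin in sh-LUC, BCL2A1 was detected in 1 line only, and BCL2L1 was lower in sh-IGFBP6. Each is written 5′ to 3′ on the gene's strand, and capitals mark matches to the motifs searched. The regions are chr20:31723914-31724213 on the minus strand for the more upstream BCL2L1 start, chr15:79971147-79971446 on the minus strand for BCL2A1, chr2:111120664-111120963 on the plus strand for BCL2L11, chr18:59899746-59900045 on the plus strand for PMAIP1, and chr19:47232618-47232917 on the minus strand for BBC3.
BCL2L1: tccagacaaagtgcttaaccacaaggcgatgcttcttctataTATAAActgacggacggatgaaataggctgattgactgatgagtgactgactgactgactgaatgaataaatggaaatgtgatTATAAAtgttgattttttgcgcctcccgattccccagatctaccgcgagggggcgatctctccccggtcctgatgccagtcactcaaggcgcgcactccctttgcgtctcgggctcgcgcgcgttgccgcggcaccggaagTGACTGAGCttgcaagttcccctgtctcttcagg
BCL2A1: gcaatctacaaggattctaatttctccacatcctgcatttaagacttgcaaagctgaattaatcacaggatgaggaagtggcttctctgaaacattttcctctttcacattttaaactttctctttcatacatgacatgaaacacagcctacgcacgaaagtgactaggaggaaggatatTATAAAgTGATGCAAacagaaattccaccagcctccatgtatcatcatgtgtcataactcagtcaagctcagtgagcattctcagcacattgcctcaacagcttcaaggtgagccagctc
BCL2L11: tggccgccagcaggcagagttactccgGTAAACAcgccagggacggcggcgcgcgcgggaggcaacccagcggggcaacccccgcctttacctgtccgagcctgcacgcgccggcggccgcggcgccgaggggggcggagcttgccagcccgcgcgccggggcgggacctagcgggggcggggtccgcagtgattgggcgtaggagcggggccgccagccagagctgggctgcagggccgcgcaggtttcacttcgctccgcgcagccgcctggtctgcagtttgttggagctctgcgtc
PMAIP1: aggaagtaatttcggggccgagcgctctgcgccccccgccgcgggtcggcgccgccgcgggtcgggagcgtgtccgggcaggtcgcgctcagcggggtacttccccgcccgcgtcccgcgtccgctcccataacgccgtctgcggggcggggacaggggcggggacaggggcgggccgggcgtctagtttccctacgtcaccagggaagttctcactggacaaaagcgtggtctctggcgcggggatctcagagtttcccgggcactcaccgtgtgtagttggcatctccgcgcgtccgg
BBC3: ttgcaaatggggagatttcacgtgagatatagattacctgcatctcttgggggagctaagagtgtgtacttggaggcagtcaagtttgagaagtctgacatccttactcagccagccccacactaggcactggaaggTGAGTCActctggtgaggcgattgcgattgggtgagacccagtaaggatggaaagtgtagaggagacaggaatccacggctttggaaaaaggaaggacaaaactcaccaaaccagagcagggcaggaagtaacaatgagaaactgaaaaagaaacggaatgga

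Both strands were searched for the C/EBP-ATF element TTNCATCA, a CHOP-type element, AP-1 TGANTCA, the cyclic AMP element CRE TGACGTCA, FOXO GTAAACA, an NF-kB element, heat shock GAANNTTC, the antioxidant response element TGACNNNGC and the TATA box TATAAA. The BCL2A1 window held TATAAA beginning 70 bases before the start and, 1 base after it ends, TGATGCAA, which is the C/EBP-ATF element read on the other strand. TATAAA was in 11.5% of all 35116 windows of this length, and TTNCATCA in 3.62%. The BCL2L1 window shown held TATAAA at -208 and at -125 and, from +17, TGACTGAGC, a form of the antioxidant element found in 13.3% of windows. The window of the other BCL2L1 start (chr20:31722819-31723118) held none of the 9 motifs. The BCL2L11 window held the FOXO letters GTAAACA at -223 (3.42% of windows) and the BBC3 window the AP-1 letters TGAGTCA at -113 (7.71% of windows). The PMAIP1 window held none of the 9 motifs. The CHOP-type, CRE, NF-kB and heat shock letters (0.231%, 1.85%, 1.91% and 6.77% of windows) were in none of the 12 windows, which says only that these letters are not there. The windows also differed in base composition: 41% G or C in that of BCL2A1, against 74.7% in BCL2L11, 71.3% in PMAIP1, 48% in BBC3 and 52% in the BCL2L1 window shown. The other BCL2L1 window had 61.3%. No match or absence was used in a test.

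Per kilobase of exon, the guardians BCL2L1 and MCL1 were the most abundant of the 10 genes. In sh-LUC control, the length-scaled level was 84.6 ± 5.19 CPM per kb for BCL2L1 and 64.8 ± 2.37 for MCL1 (mean ± SD, n = 3, as for all such values). BAX stood at 24.8 ± 2.27, PMAIP1 at 18.7 ± 3.73 and TNFRSF10B at 17.9 ± 0.73 CPM per kb, so that PMAIP1 and TNFRSF10B did not differ beyond their spread. BID (3.73 ± 0.48), BCL2L11 (2.89 ± 0.38) and BBC3 (2.13 ± 0.41) were lower, BIK was at 0.604 ± 0.25, and BCL2A1 had no counts. The order was another in sh-IGFBP6 DHA: MCL1 was first at 109.9 ± 3.25 CPM per kb, PMAIP1 second at 38.0 ± 2.73 and BAX next at 33.4 ± 1.73, with TNFRSF10B at 20.8 ± 0.49 and BCL2L1 at 19.9 ± 1.14. Levels between genes are a description, since they depend on the gene lengths used.

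**Figure D1:**
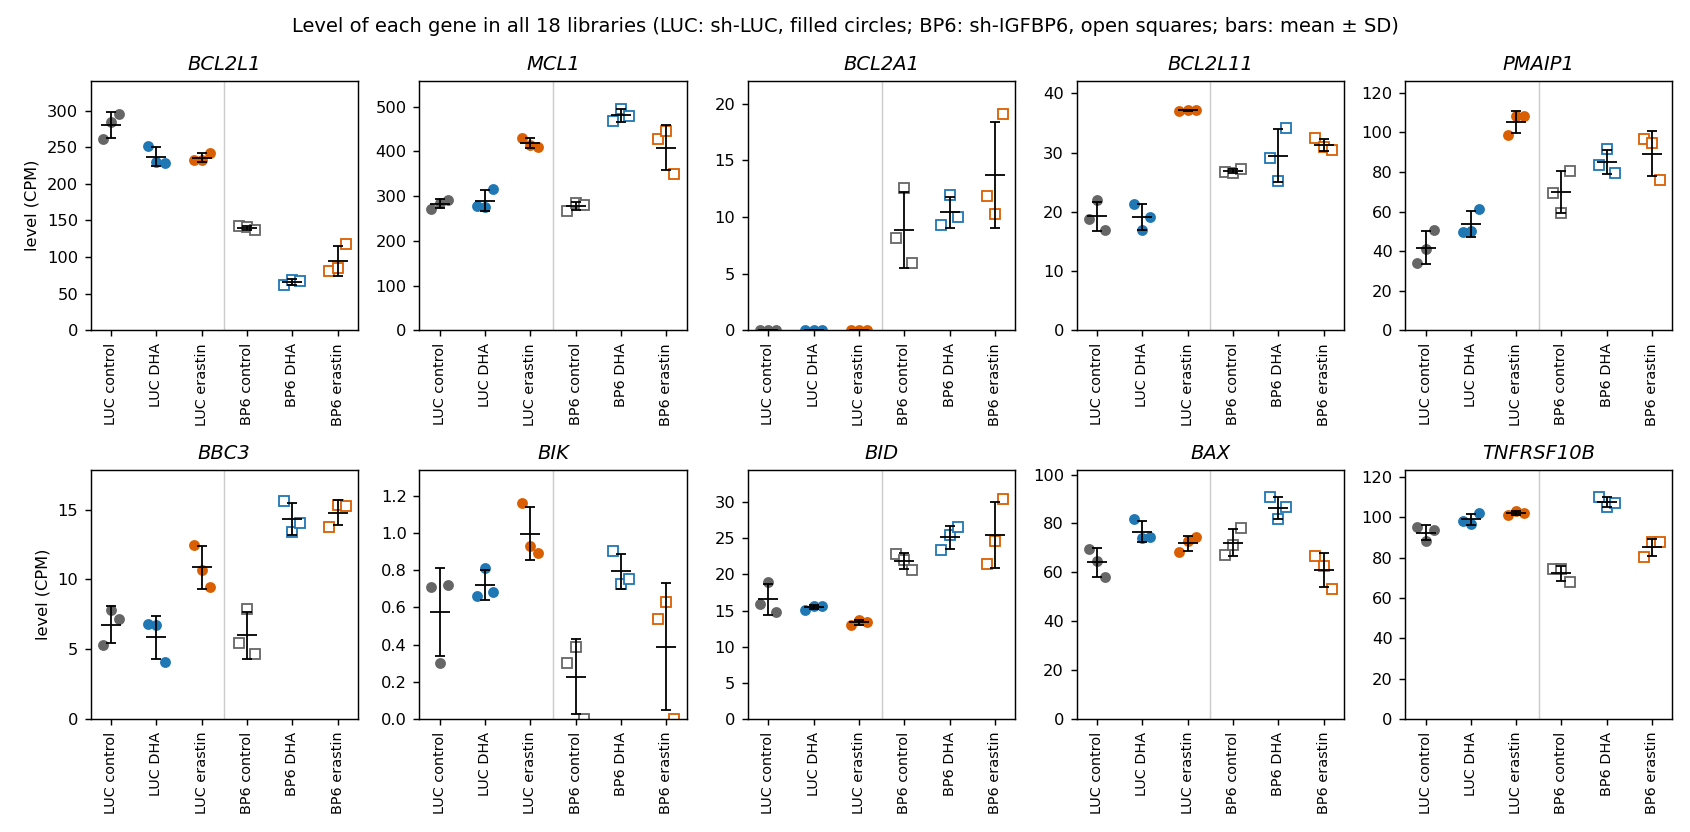
Level of each of the 10 genes (vertical axis, CPM, each panel from 0) in the 18 libraries of 6 groups, with the mean and SD of each group. BCL2A1 is at 0 in all 9 sh-LUC libraries, the BCL2L1 libraries of sh-IGFBP6 all lie below those of sh-LUC, and MCL1 is high in sh-LUC erastin and in both treated sh-IGFBP6 groups.

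Of the 10 genes, 9 passed the filter on low counts and were tested among 15189 genes with edgeR (quasi-likelihood test, Benjamini-Hochberg adjustment over all of them). A gene is said to have risen or fallen where the adjusted p was below 0.05. BIK, with 65 counts in all 18 libraries, was not tested. The erastin and DHA comparisons of a line share the vehicle libraries, as do the line comparison and the differences between responses, so their values are given side by side and not as separate evidence. In sh-LUC, where BCL2A1 had no counts and no value, erastin moved 5 of the 8 other genes, against 45.9% of all genes tested (21.4% higher and 24.4% lower): 4 rose (BCL2L11, PMAIP1, BBC3 and MCL1) and BCL2L1 fell. DHA in sh-LUC moved 3 genes, against 16.8% of all genes (7.14% higher and 9.63% lower): PMAIP1 and BAX rose and BCL2L1 fell. In sh-IGFBP6, erastin moved 5 genes, against 29.0% of all (14.7% higher and 14.3% lower): MCL1, PMAIP1, BBC3 and TNFRSF10B rose and BCL2L1 fell. Without the shallow library these 5 values were 0.66, 0.47, 1.22, 0.21 and -0.75, all still past the test, and those of BCL2A1, BCL2L11, BID and BAX were 0.30, 0.24, 0.07 and -0.15, none past it. DHA in sh-IGFBP6 moved 6, against 34.2% of all (17.4% higher and 16.8% lower): MCL1, PMAIP1, BBC3, BAX and TNFRSF10B rose and BCL2L1 fell. Between the untreated lines 6 differed, against 64.6% of all genes (32.5% higher and 32.1% lower). BCL2A1, BCL2L11, PMAIP1 and BID were higher in sh-IGFBP6, and BCL2L1 and TNFRSF10B lower. The filter was passed by BCL2A1 only through its sh-IGFBP6 libraries, so its place among these 6 was largely set beforehand.

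The median log2 fold change of the tested genes was 0.37 for erastin in sh-LUC, beside -0.02 over all genes tested, and 0.01 for DHA in sh-LUC, beside 0.01. It was 0.24 for erastin and 0.25 for DHA in sh-IGFBP6, beside 0.00 in both cases over all genes, and 0.18 between the untreated lines, beside 0.01. The share of genes that differed between the untreated lines is near the background, and no count is read as particular to the family.

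**Figure D2:**
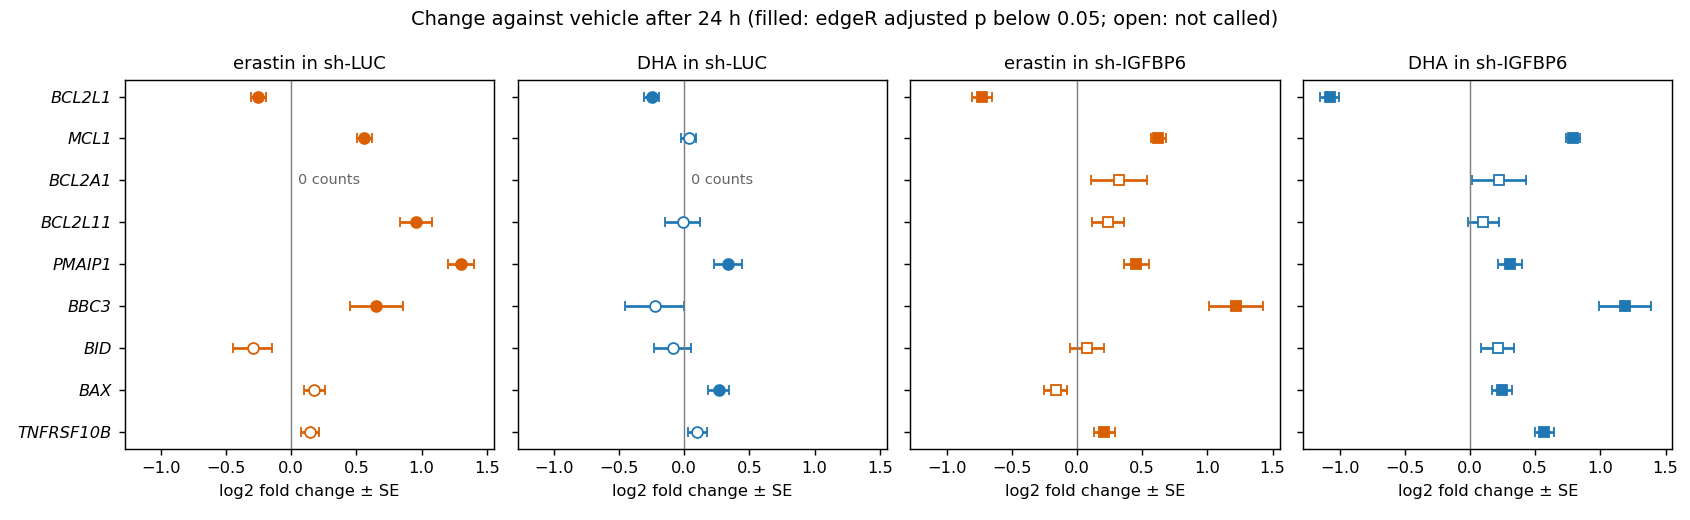
Log2 fold change against vehicle (horizontal axis, with its SE as a bar) of the 9 tested genes for erastin and DHA in each line. Filled symbols passed an edgeR adjusted p of 0.05. BCL2L1 lies to the left of 0 in all 4 panels, and BBC3 reaches 1.22 and 1.19 in the sh-IGFBP6 panels.

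BCL2L1 (ENSG00000171552.14, chr20:31664452-31723989, minus strand, GRCh38), the gene of the guardian BCL-xL, was lower in sh-IGFBP6 and fell further there with either agent. Its sh-LUC libraries held 261, 284 and 295 CPM after vehicle, 252, 230 and 229 after DHA, and 232, 233 and 242 after erastin. Those of sh-IGFBP6 held 142, 141 and 137 CPM with vehicle, 61.6, 68.8 and 67.0 with DHA, and 81.2, 85.1 and 118 with erastin, where 118 comes from the shallow library. No treated library reached the lowest vehicle library of its own line, and no sh-IGFBP6 library reached the lowest of sh-LUC. Without treatment it was 2.01-fold lower in sh-IGFBP6 (-1.01 in log2 units, SE 0.06, edgeR adjusted p = 7.87e-30). In sh-LUC it fell by 0.25 on the log2 scale with erastin (SE 0.06, edgeR adjusted p = 1.37e-04) and by 0.25 with DHA (SE 0.06, edgeR adjusted p = 6.56e-04), in 3 of 3 libraries each. In sh-IGFBP6 it was 1.66-fold lower with erastin (-0.73 in log2 units, SE 0.08, edgeR adjusted p = 7.35e-15) and 2.11-fold lower with DHA (-1.08, SE 0.07, edgeR adjusted p = 1.34e-26). The response of sh-IGFBP6 minus that of sh-LUC was -0.48 (SE 0.10, edgeR adjusted p = 3.23e-05) for erastin and -0.83 (SE 0.09, edgeR adjusted p = 1e-12) for DHA, so the fall differed between the lines with both agents. Without the shallow library the erastin values were -0.75 in sh-IGFBP6 and -0.52 for the difference between lines. Exons of BCL2L1 share 1424 bases with ABALON on the opposite strand. ABALON, with at most 47 counts in a group, also fell in sh-IGFBP6 with erastin (-2.37, SE 0.80, edgeR adjusted p = 0.0171) and DHA (-2.55, SE 0.79, edgeR adjusted p = 0.00713), and its DHA responses also differed between lines (-2.49, SE 0.90, edgeR adjusted p = 0.0362). Since the strand setting of the counting is not given, reads from the pair cannot be told apart. Scaled by library size alone, BCL2L1 no longer passed in sh-LUC with erastin (-0.36, edgeR adjusted p = 0.214) or DHA (-0.19, 0.785), nor did its erastin difference (-0.61, 0.241), and with no filter on low counts the DHA change in sh-LUC did not pass (-0.18, 0.0993).

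MCL1 (ENSG00000143384.14, chr1:150574551-150579738, minus strand), the gene of a short-lived guardian that NOXA binds, moved in the other direction. In sh-LUC it stood at 272, 286 and 292 CPM after vehicle and at 279, 275 and 316 after DHA, and these groups overlapped. Erastin gave 431, 415 and 409 CPM there, with all 3 libraries above the other 6 of that line. The sh-IGFBP6 libraries stood at 267, 285 and 280 CPM with vehicle, 467, 495 and 479 with DHA, and 429, 446 and 350 with erastin, so both treated groups lay above vehicle. Erastin raised it by 1.48-fold in sh-LUC (0.56 in log2 units, SE 0.06, edgeR adjusted p = 1.92e-16) and 1.54-fold in sh-IGFBP6 (0.62, SE 0.06, edgeR adjusted p = 5.49e-17). The 2 erastin responses differed by 0.06 (SE 0.08, 95% interval -0.12 to 0.24, edgeR adjusted p = 0.636). DHA raised it by 1.73-fold in sh-IGFBP6 (0.79, SE 0.06, edgeR adjusted p = 1.91e-25), while in sh-LUC its change was 0.03 (SE 0.06, 95% interval -0.09 to 0.16, edgeR adjusted p = 0.769). This difference between the DHA responses was 0.76 (SE 0.08, edgeR adjusted p = 2.43e-14). The untreated lines were 0.03 apart, lower in sh-IGFBP6 (-0.03 in log2 units, SE 0.06, edgeR adjusted p = 0.685). Scaling by library size alone ended 3 of these calls: the erastin changes became 0.45 in sh-LUC (edgeR adjusted p = 0.133) and 0.25 in sh-IGFBP6 (0.507), and the DHA difference 0.62 (0.291).

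BCL2A1 (ENSG00000140379.9, chr15:79960889-79971446, minus strand), the gene of the guardian BFL-1 and best known as an NF-kB target of blood cells, had no counts in any of the 9 sh-LUC libraries. In sh-IGFBP6 its level was 8.13, 12.5 and 5.91 CPM with vehicle (116 counts in all), 9.31, 11.9 and 10.0 with DHA (153 counts), and 11.9, 10.3 and 19.0 with erastin (142 counts), the last of these from 5 counts. The lines did not overlap, while the 3 groups of sh-IGFBP6 did. Set against a floor of 3 counts over the sh-LUC group, it was at least 30.5-fold higher in sh-IGFBP6 control, at least 76.4-fold with DHA and at least 102-fold with erastin. That floor was 0.291, 0.136 and 0.135 CPM in the sh-LUC control, DHA and erastin groups. The erastin bound without the shallow library was at least 82.1-fold. The difference between untreated lines passed the test (edgeR adjusted p = 2.72e-18). However, BCL2A1 had passed the filter on low counts only through its sh-IGFBP6 libraries, so this p-value adds no support to the counts themselves. Within sh-IGFBP6 the log2 fold change was 0.32 for erastin (SE 0.21, edgeR adjusted p = 0.272) and 0.22 for DHA (SE 0.21, edgeR adjusted p = 0.43), neither past the test. Without sh-IGFBP6 control 2 the erastin change was 0.72 and passed (edgeR adjusted p = 0.0282). The leukocyte marker PTPRC, set beside it because BCL2A1 is known from blood cells, was at most 0.1004 CPM on average in the sh-IGFBP6 groups and 1.37 to 2.31 CPM in the sh-LUC groups.

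Among the BH3-only genes, PMAIP1 (ENSG00000141682.12, chr18:59899948-59904306, plus strand), which encodes the MCL1-binding protein NOXA, rose with each agent in each line. Levels in sh-LUC were 34.0, 40.9 and 50.6 CPM after vehicle, 49.6, 50.03 and 61.6 after DHA, and 98.8, 108 and 108 after erastin. Their sh-IGFBP6 counterparts were at 69.6, 59.4 and 80.7 CPM with vehicle, 83.5, 91.5 and 79.5 with DHA, and 96.7, 94.7 and 76.2 with erastin. Only in sh-LUC erastin were all 3 libraries apart from their vehicle libraries, and the other 3 treated groups overlapped theirs. Erastin raised it 2.47-fold in sh-LUC (1.30 in log2 units, SE 0.10, edgeR adjusted p = 2.86e-18) and 1.37-fold in sh-IGFBP6 (0.45, SE 0.10, edgeR adjusted p = 1.35e-04). The erastin response of sh-IGFBP6 was smaller by 0.85 on the log2 scale (difference -0.85, SE 0.14, edgeR adjusted p = 1.97e-06), from a vehicle level 1.62-fold higher than in sh-LUC (0.70, SE 0.11, edgeR adjusted p = 8.69e-08). Without the shallow library that difference was -0.86. The DHA changes of PMAIP1 were small, 0.33 in sh-LUC (SE 0.11, edgeR adjusted p = 0.0202) and 0.30 in sh-IGFBP6 (SE 0.09, edgeR adjusted p = 0.00716), and the 2 differed by -0.03 (95% interval -0.34 to 0.28). These calls depended on single libraries. In sh-LUC the edgeR adjusted p was 0.191 without control 1 (where the change was 0.22), 0.109 without control 2 and 0.162 without DHA 3, and without control 3 the change was 0.52. In sh-IGFBP6 it was 0.166 without control 2 (where the change was 0.18) and 0.0961 without DHA 2. Under scaling by library size alone neither DHA change passed (0.40 and 0.21, edgeR adjusted p = 0.187 and 0.406), nor did the erastin change in sh-IGFBP6 (0.22, 0.346).

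BCL2L11 (ENSG00000153094.24, chr2:111119378-111168447, plus strand) encodes BIM, which binds all guardians and can activate effectors. The sh-LUC libraries gave 18.8, 21.9 and 17.01 CPM after vehicle, 21.4, 16.9 and 19.1 after DHA, and 37.0, 37.2 and 37.2 after erastin. Those of sh-IGFBP6 stood at 26.8, 26.6 and 27.3 CPM with vehicle, 29.1, 25.2 and 34.1 with DHA, and 32.4, 30.9 and 30.5 with erastin. The 3 erastin libraries of sh-LUC were the highest of all 18. Erastin raised it 1.94-fold in sh-LUC (0.96 in log2 units, SE 0.12, edgeR adjusted p = 1.68e-11), against 0.24 in sh-IGFBP6 (SE 0.12, edgeR adjusted p = 0.136), a difference of -0.72 between responses (SE 0.17, edgeR adjusted p = 6.54e-04). The DHA change was -0.01 in sh-LUC (95% interval -0.31 to 0.28) and 0.10 in sh-IGFBP6 (95% interval -0.16 to 0.36), neither past the test. Without treatment it was 1.41-fold higher in sh-IGFBP6 (0.49, SE 0.14, edgeR adjusted p = 0.00106). Exons of BCL2L11 share 727 bases with MIR4435-2HG on the opposite strand, a noncoding RNA whose sh-LUC level was 120 ± 13.4 CPM after vehicle and 147 ± 7.22 after erastin. That partner also rose with erastin in sh-LUC (0.30, SE 0.07, edgeR adjusted p = 3.25e-04) and its erastin responses also differed between lines (-0.31, SE 0.11, edgeR adjusted p = 0.0273), and reads of the pair cannot be told apart here. Its level was lower in sh-IGFBP6 control, at 94.8 ± 6.59 CPM, where BCL2L11 was higher.

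BBC3 (ENSG00000105327.18, chr19:47220822-47232766, minus strand), the gene of PUMA, was low in all vehicle libraries and more than doubled in treated sh-IGFBP6. In sh-LUC its level was 5.31, 7.82 and 7.19 CPM after vehicle, 6.81, 6.72 and 4.09 after DHA, and 12.5, 10.7 and 9.46 after erastin. In sh-IGFBP6 the values were 5.42, 7.90 and 4.68 CPM with vehicle, 15.6, 13.4 and 14.1 with DHA, and 13.8, 15.3 and 15.2 with erastin. Both treated sh-IGFBP6 groups and sh-LUC erastin lay wholly above vehicle, and sh-LUC DHA overlapped it. In sh-IGFBP6 it rose 2.33-fold with erastin (1.22 in log2 units, SE 0.20, edgeR adjusted p = 4.85e-07) and 2.28-fold with DHA (1.19, SE 0.20, edgeR adjusted p = 3.21e-07). In sh-LUC it rose 1.57-fold with erastin (0.65, SE 0.20, edgeR adjusted p = 0.00483), and its DHA change was -0.23 (SE 0.23, edgeR adjusted p = 0.578). The DHA responses differed by 1.42 (SE 0.31, edgeR adjusted p = 1.71e-04), and the erastin responses by 0.57 (95% interval -0.08 to 1.22, edgeR adjusted p = 0.159), which became 0.87 and passed without sh-IGFBP6 control 2 (edgeR adjusted p = 0.0499). With library size alone the erastin change in sh-LUC was 0.55 (edgeR adjusted p = 0.0533). The untreated lines differed by -0.15 (SE 0.25, edgeR adjusted p = 0.615). BBC3 rested on 71 to 240 counts per group. Its exons hold the microRNA genes MIR3190 and MIR3191, whose reads cannot be told apart from its own here.

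BID (ENSG00000015475.19, chr22:17734138-17774770, minus strand), the caspase-8 substrate, differed by line, and none of its 4 responses to treatment passed the test. Its sh-LUC libraries held 15.9, 18.9 and 14.9 CPM after vehicle, 15.1, 15.6 and 15.7 after DHA, and 13.1, 13.7 and 13.4 after erastin. The other line gave 22.9, 22.0 and 20.7 CPM with vehicle, 23.4, 25.5 and 26.6 with DHA, and 21.5, 24.6 and 30.5 with erastin. All 9 sh-IGFBP6 libraries lay above all 9 of sh-LUC. The sh-LUC erastin libraries all lay below vehicle, and the sh-IGFBP6 DHA libraries all above it. Without treatment BID was 1.32-fold higher in sh-IGFBP6 (0.40 in log2 units, SE 0.15, edgeR adjusted p = 0.0121), a call that ended without sh-LUC control 3 (0.32, edgeR adjusted p = 0.0979). Its 4 responses ran from -0.30 (erastin in sh-LUC, SE 0.15, edgeR adjusted p = 0.0886) to 0.21 (DHA in sh-IGFBP6, SE 0.13, edgeR adjusted p = 0.191). BIK (ENSG00000100290.3, chr22:43110748-43129712, plus strand), an endoplasmic reticulum BH3-only gene, was at most 1.16 CPM in any library. It had 6, 16 and 22 counts in the sh-LUC control, DHA and erastin groups and 3, 11 and 7 in those of sh-IGFBP6, which is too few to compare.

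BAX (ENSG00000087088.20, chr19:48954815-48961798, plus strand), the effector that forms pores in the outer mitochondrial membrane, varied least of the 10 genes, with group means from 60.9 to 86.3 CPM. Levels in sh-LUC were 69.7, 64.6 and 58.0 CPM after vehicle, 81.7, 73.9 and 74.4 after DHA, and 68.3, 72.7 and 74.4 after erastin. Levels in sh-IGFBP6 were 67.1, 71.1 and 78.03 CPM with vehicle, 90.7, 81.8 and 86.6 with DHA, and 66.6, 62.8 and 53.3 with erastin. DHA libraries lay above vehicle in both lines, sh-IGFBP6 erastin lay below it, and sh-LUC erastin overlapped it. DHA raised BAX 1.20-fold in sh-LUC (0.27 in log2 units, SE 0.08, edgeR adjusted p = 0.0116) and 1.19-fold in sh-IGFBP6 (0.25, SE 0.08, edgeR adjusted p = 0.00927). With erastin the change was 0.18 in sh-LUC (SE 0.08, edgeR adjusted p = 0.0636) and -0.16 in sh-IGFBP6 (SE 0.09, edgeR adjusted p = 0.154), and the difference between them was -0.34 (SE 0.12, edgeR adjusted p = 0.0227). These small changes depended on single libraries. The edgeR adjusted p of the DHA change in sh-LUC was 0.197 without control 3 and 0.0696 without DHA 1, and that in sh-IGFBP6 was 0.0668 without control 1. That of the erastin difference was 0.129 without sh-LUC control 3, 0.0535 without sh-LUC erastin 3, 0.0596 without sh-IGFBP6 control 3 and 0.0778 without sh-IGFBP6 erastin 2. All 3 calls also ended with library size alone (edgeR adjusted p = 0.308, 0.513 and 0.253). The erastin change in sh-LUC passed under 6 of 25 alternatives, among them without the shallow library (0.20, edgeR adjusted p = 0.034).

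TNFRSF10B (ENSG00000120889.13, chr8:23020133-23069179, minus strand), the gene of the TRAIL receptor DR5, started lower in sh-IGFBP6 and rose with DHA there. The sh-LUC libraries gave 95.2, 88.1 and 93.7 CPM after vehicle, 97.9, 96.9 and 102 after DHA, and 101, 103 and 102 after erastin. Those of sh-IGFBP6 held 74.4, 74.4 and 67.9 CPM with vehicle, 110, 105 and 107 with DHA, and 80.1, 87.6 and 87.6 with erastin. The 3 sh-IGFBP6 DHA libraries were the highest of all 18 and the 3 with vehicle the lowest. Without treatment it was 1.28-fold lower in sh-IGFBP6 (-0.35 in log2 units, SE 0.08, edgeR adjusted p = 4.06e-05). DHA raised it 1.48-fold in sh-IGFBP6 (0.57, SE 0.07, edgeR adjusted p = 1.04e-10), against 0.10 in sh-LUC (SE 0.07, edgeR adjusted p = 0.368), and these responses differed by 0.47 (SE 0.10, edgeR adjusted p = 1.98e-04). The erastin changes were 0.21 in sh-IGFBP6 (SE 0.08, edgeR adjusted p = 0.0385) and 0.15 in sh-LUC (SE 0.07, edgeR adjusted p = 0.0824), 0.06 apart (95% interval -0.17 to 0.30). The erastin call in sh-IGFBP6 ended without control 1, 2 or 3 (edgeR adjusted p = 0.0522, 0.0535 and 0.211) and without erastin 1 or 2 (0.0611 and 0.264), and scaling by library size alone turned its sign (-0.02). That scaling also ended the calls between untreated lines (-0.25, edgeR adjusted p = 0.23) and for the DHA difference (0.34, 0.507). In sh-LUC the erastin change passed under 4 of 25 alternatives, among them without the shallow library (0.17, edgeR adjusted p = 0.0391). Its exons share 67 bases with RHOBTB2 on the opposite strand, which was at 5.63 to 13.6 CPM by group.

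Tested as a difference between lines, the erastin responses of 4 of the 8 genes with a value differed, against 26.2% of all genes (14.1% higher and 12.0% lower), and all 4 values (BCL2L1, BCL2L11, PMAIP1 and BAX) were lower in sh-IGFBP6. The median over the genes was -0.14, beside 0.02 over all genes. Without the shallow library these 4 differences were -0.52, -0.74, -0.86 and -0.35, all past the test, and those of MCL1, BBC3, BID and TNFRSF10B were 0.07, 0.54, 0.34 and 0.04, none past it. The DHA responses of 4 genes differed, against 20.6% of all genes (10.4% higher and 10.2% lower): MCL1, BBC3 and TNFRSF10B responded more in sh-IGFBP6 and BCL2L1 fell further. The median was 0.21, beside 0.00 over all genes. BCL2L1 was the gene whose response differed with both agents.

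**Figure D3:**
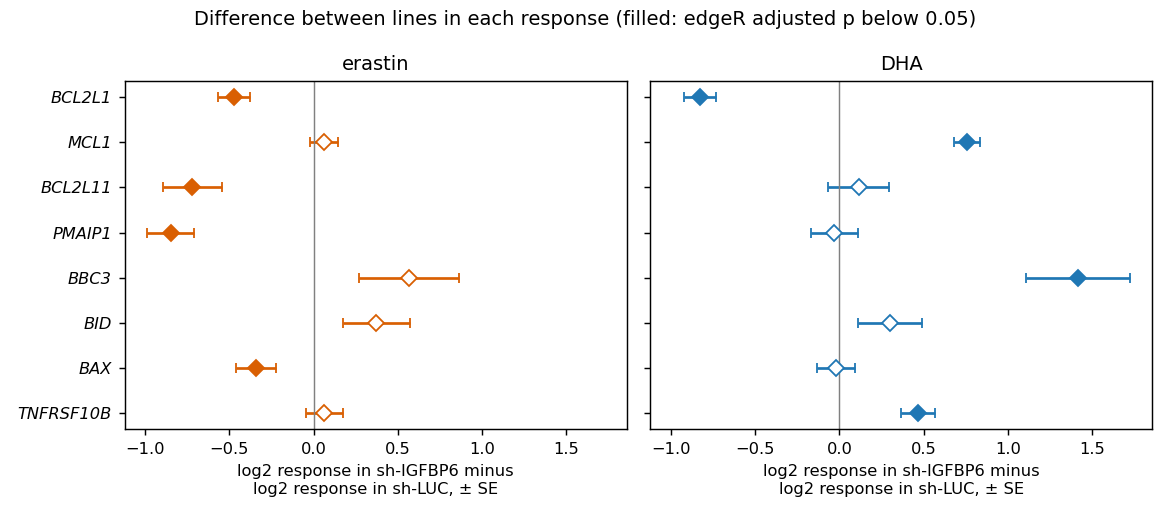
Response of sh-IGFBP6 minus response of sh-LUC (horizontal axis, log2 units, bars are SE) for erastin and DHA in the 8 genes with a value in both lines. Filled symbols passed an edgeR adjusted p of 0.05: 4 negative values for erastin, and for DHA 3 positive values and that of BCL2L1 at -0.83.

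Compared directly, the 2 agents differed in 4 of the 8 genes with a value in sh-LUC, against 50.2% of all genes (26.0% higher and 24.2% lower), each lower with DHA than with erastin. BCL2L11 was 1.96-fold lower with DHA (-0.97 in log2 units, SE 0.10, edgeR adjusted p = 1.85e-15), PMAIP1 1.96-fold (-0.97, SE 0.08, edgeR adjusted p = 2.6e-16), BBC3 1.84-fold (-0.88, SE 0.17, edgeR adjusted p = 4.68e-06) and MCL1 1.44-fold (-0.53, SE 0.05, edgeR adjusted p = 3.77e-16). In sh-IGFBP6, 4 genes differed, against 25.9% of all genes (13.1% higher and 12.8% lower). BAX (0.41, edgeR adjusted p = 4.94e-05), TNFRSF10B (0.36, edgeR adjusted p = 8.63e-05) and MCL1 (0.17, edgeR adjusted p = 0.0195) were higher with DHA, and BCL2L1 (-0.35, edgeR adjusted p = 3.96e-04) was lower. Without the shallow library MCL1 no longer passed (0.12, edgeR adjusted p = 0.115), nor did it without DHA 2 or erastin 1 (0.0945 and 0.065), and the other 3 did (0.38, 0.35 and -0.34). With library size alone, MCL1 did not pass in sh-LUC (-0.37, edgeR adjusted p = 0.218), nor did BCL2L1 (-0.20, 0.65), MCL1 (0.46, 0.2) or TNFRSF10B (0.51, 0.05) in sh-IGFBP6. The doses, 200 µM and 2.5 µM, are of unlike compounds and were not matched for effect.

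The rest of the pathway was followed in 9 lists of 59 genes, of which 51 were tested. Erastin raised 12 and lowered 17 of them in sh-LUC, and raised 13 and lowered 7 in sh-IGFBP6, with medians of -0.06 and 0.05. DHA raised 5 and lowered 9 in sh-LUC, and raised 16 and lowered 4 in sh-IGFBP6, with medians of -0.01 and 0.09. Between untreated lines 18 were higher and 22 lower in sh-IGFBP6. These counts are 56.9% (erastin) and 27.5% (DHA) of the 51 genes in sh-LUC, beside 45.9% and 16.8% of all genes. In sh-IGFBP6 they are 39.2% for each agent, beside 29.0% and 34.2%, and between lines 78.4%, beside 64.6%. The DHA count in sh-LUC was 9 and not 14 without sh-LUC control 1 and also by DESeq2. Scaled by library size alone, the genes that rose and fell numbered 1 and 5 when sh-LUC received DHA, and in sh-IGFBP6 5 and 7 after erastin and 4 and 3 after DHA. With the shallow library left out, 14 rose and 6 fell after erastin in sh-IGFBP6. The 8 genes not tested were BCL2L10, BCL2L14, BCL2L15, HRK, TNFRSF10C, FASLG, TNF and BIRC7, with 0 to 87 counts each over all 18 libraries.

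Among further BH3-only genes, BMF, whose product is held at the cytoskeleton until released by stress, moved in opposite directions in the 2 lines. In sh-LUC its level was 23.0, 24.3 and 30.7 CPM after vehicle, 13.4, 16.8 and 16.2 after DHA, and 14.8, 12.3 and 16.7 after erastin. The sh-IGFBP6 libraries stood at 2.71, 1.93 and 3.45 CPM with vehicle, 8.41, 7.42 and 8.03 with DHA, and 5.13, 5.25 and 7.62 with erastin, the last from 2 counts. All treated libraries lay below vehicle in sh-LUC and above it in sh-IGFBP6. It fell with erastin (-0.85 in log2 units, SE 0.14) and DHA (-0.76, SE 0.13) in sh-LUC and rose with erastin (0.99, SE 0.31) and DHA (1.57, SE 0.27) in sh-IGFBP6. Responses differed by 1.84 (SE 0.33) for erastin and 2.32 (SE 0.30) for DHA, from a vehicle level 9.98-fold lower in sh-IGFBP6 (-3.32, SE 0.22), and each of these 7 values had an edgeR adjusted p below 0.05. The erastin values without the shallow library were 0.98 in sh-IGFBP6 and 1.81 for the difference, and both passed. The BMF erastin call in sh-IGFBP6 ended without control 2 (0.74, edgeR adjusted p = 0.11), without erastin 1 (1.01, 0.0518) and with library size alone (0.85, 0.0722). BAD fell with erastin in sh-LUC (-0.39, SE 0.12), though not without control 1 (edgeR adjusted p = 0.0966) or erastin 2 (0.0655), and was lower in sh-IGFBP6 (-0.51, SE 0.14).

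Of the further guardians, BCL2 was 2.51-fold higher in sh-IGFBP6 control, at 32.8 ± 1.67 CPM against 13.3 ± 3.24 in sh-LUC control (1.33 in log2 units, SE 0.14). It rose with erastin (0.58, SE 0.15) and DHA (0.48, SE 0.15) in sh-LUC and fell with erastin in sh-IGFBP6 (-0.31, SE 0.12). Without sh-LUC control 3 these sh-LUC changes were 0.38 (edgeR adjusted p = 0.0603) and 0.28 (0.348), and the DHA call also ended by DESeq2 (0.0721) and with library size alone (0.0917). The fall in sh-IGFBP6 was lost under 8 of 25 alternatives, among them without the shallow library (-0.29, edgeR adjusted p = 0.0588), by DESeq2 (0.113) and without control 2 (-0.27, 0.162). BCL2L2, which encodes BCL-w, rose with erastin in sh-LUC (0.46, SE 0.10) and with DHA in sh-IGFBP6 (0.48, SE 0.10), neither past the test with library size alone (edgeR adjusted p = 0.0662 and 0.0523). Of 6 tested effectors and atypical family genes, BAK1, the other main effector, was lower in sh-IGFBP6 control (-0.78, SE 0.13). BNIP3, a hypoxia-linked mitophagy receptor, rose with DHA in sh-LUC (0.68, SE 0.08) and sh-IGFBP6 (0.56, SE 0.08), the latter not with library size alone (edgeR adjusted p = 0.0619).

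In the death receptor list the ligand gene TNFSF10, which encodes TRAIL, had 183 counts in sh-LUC control (17.3 ± 3.60 CPM) and 2 counts in sh-IGFBP6 control. In sh-LUC it fell with erastin (-2.23 in log2 units, SE 0.22) to 3.73 ± 0.81 CPM and with DHA (-1.38, SE 0.20) to 6.70 ± 1.80 CPM. The decoy receptor TNFRSF10D rose in sh-IGFBP6 with erastin (0.96, SE 0.11) and DHA (0.51, SE 0.11), and these responses differed from those of sh-LUC by 0.78 (SE 0.17) and 0.93 (SE 0.17). Its erastin values without the shallow library were 0.96 and, for the difference, 0.76. TNFRSF21, which encodes DR6, was 4.25-fold lower in sh-IGFBP6 control, at 107 ± 4.68 CPM against 456 ± 15.2 (-2.09, SE 0.06). The adaptor FADD fell with erastin in both lines (-0.70, SE 0.15 in sh-LUC, and -0.58, SE 0.17 in sh-IGFBP6). Neither call held by DESeq2 (adjusted p = 0.0524 and 0.398), and that in sh-IGFBP6 ended without erastin 1 or 2 (edgeR adjusted p = 0.06 and 0.0511) and was -0.65 without the shallow library (edgeR adjusted p = 9.93e-04).

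Downstream, CYCS, the gene of cytochrome c, rose with erastin in sh-LUC (0.74 in log2 units, SE 0.08) while CASP6, an executioner caspase, fell (-0.999, SE 0.18). CASP9, the initiator caspase of the apoptosome, fell with DHA in sh-IGFBP6 (-0.75, SE 0.18). Among inhibitors of apoptosis, BIRC3 fell with DHA in sh-LUC (-1.18, SE 0.13), from 46.7 ± 3.38 to 20.6 ± 6.44 CPM, and its DHA responses differed between lines by 1.27 (SE 0.20). Of the 4 ubiquitin enzymes that act on MCL1, 2 were higher and 2 lower in sh-IGFBP6 control, where 64.6% of all genes differed between the untreated lines. The lower ones were USP9X, by 1.83-fold (-0.87, SE 0.05), and HUWE1, by 1.77-fold (-0.82, SE 0.06).

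Of the 10 transcription factors known to act on these genes, ATF3 had the greatest response. In sh-LUC it stood at 1.77, 1.503 and 3.11 CPM after vehicle and at 115, 107 and 93.3 after erastin, a log2 fold change of 5.55 (SE 0.17), and it rose by 3.14 (SE 0.16; 3.13 without the shallow library) with erastin and 1.58 (SE 0.19) with DHA in sh-IGFBP6. ATF4 rose with erastin (1.20, SE 0.06) and DHA (0.52, SE 0.06) in sh-LUC, the latter not with library size alone (edgeR adjusted p = 0.162). DDIT3, the gene of CHOP, was at 12.9, 17.9 and 10.3 CPM in sh-IGFBP6 control and 48.1, 54.0 and 52.4 in sh-IGFBP6 DHA, with no overlap (1.88, SE 0.13), and its DHA responses differed between lines by 1.39 (SE 0.26). Each rise, fall or difference given for these pathway genes had an edgeR adjusted p below 0.05 with all libraries.

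**Figure D4:**
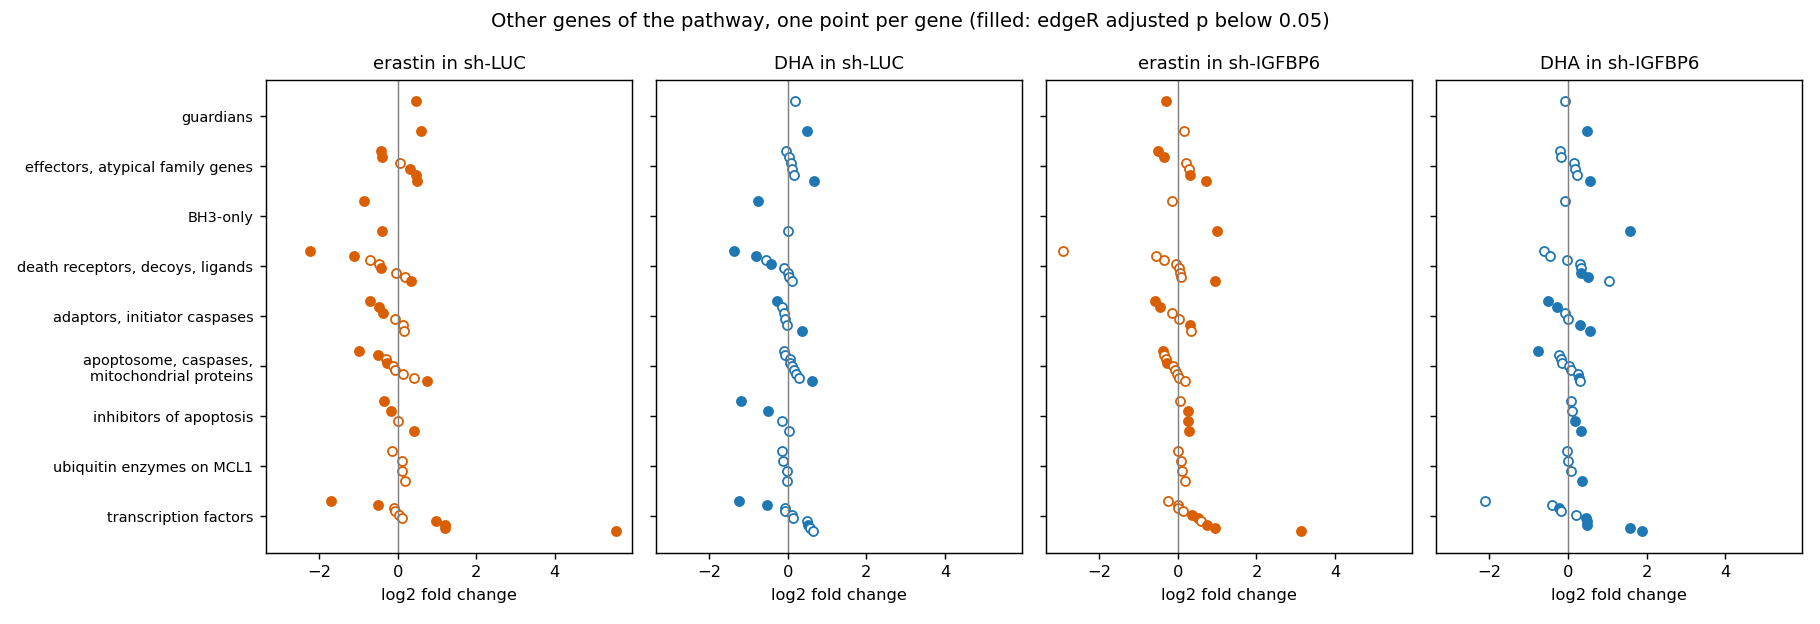
Log2 fold change against vehicle (horizontal axis) of the 51 tested pathway genes, 1 point per gene, by list and comparison. Filled points passed an edgeR adjusted p of 0.05. The point far to the right among transcription factors is ATF3, at 5.55 with erastin in sh-LUC and 3.14 in sh-IGFBP6.

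Across the 18 libraries the genes most like each tested gene were found by Pearson's r of log2 CPM, as a description over libraries that share 6 groups. BCL2L1 was most like CLCN4 (r = 0.988) and LYPD6 (0.986), and GFPT1 (0.962) was among those most like MCL1. BCL2A1 was most like RPS24 (0.996) and DCAF8L2 (0.993). Since BCL2A1 had no counts in any sh-LUC library, its r values are largely set by the split between the lines. BCL2L11 was most like HSP90AB1 (0.939) and TIPARP (0.922), PMAIP1 most like RSL24D1 (0.961) and NUP58 (0.947), and BBC3 most like WASHC2C (0.908) and KDM6B (0.907). BID was most like NDUFB9 (0.970) and ERCC1 (0.961), BAX most like NPHP4 (0.905) and NCLN (0.893), and TNFRSF10B most like UPP1 (0.927) and VGLL4 (0.909). Among the genes themselves the highest r was 0.924, between BCL2A1 and BID, both higher in sh-IGFBP6, and the lowest was -0.90, between BCL2L1 and BCL2A1. Both values hold BCL2A1 and so largely describe the line split. With BCL2A1 set aside, the highest was 0.853, between BCL2L11 and PMAIP1, and the lowest -0.83, between BCL2L1 and BID.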

How the data were processed

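RNA of 18 samples was sequenced after removal of ribosomal RNA, and the deposited values are raw counts per gene, per the labels. The submitters' processing notes name cutadapt 4.4, STAR 2.7.7a, the build GRCh38 and featureCounts. Annotation release and strand setting: not given in the sources used here. 2 lines naming no gene (at most 0.0108% of a library) and 1 gene with blank counts were left out.

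Of 60709 genes with counts, 15189 passed filterByExpr of edgeR at a minimum count of 10 and a minimum total of 15. Using edgeR 4.0.16 (R 4.3.3) with TMM factors and a coefficient for each of 6 groups, 9 comparisons were tested by robust quasi-likelihood F tests on 12 residual degrees of freedom, with Benjamini-Hochberg adjustment over all genes tested and a threshold of 0.05. The standard error is the log2 fold change divided by the root of F, or the Wald form where F was below 1. Intervals are 95%. The scripts were tested on simulated data. CPM use TMM-scaled library sizes, and CPM per kb exon lengths of GENCODE on GRCh38. The genes and lists were chosen with earlier results of these data known. The 10 genes are named throughout. In each pathway list up to 2 genes that passed the test with the smallest p are named per comparison, some of them here (a few genes are not reported here), and for likeness the 2 genes with the highest r among those with a mean of at least 5 CPM. Alternatives were DESeq2 1.42.0, no TMM, other filters, fits of the compared groups alone, a replicate block, exclusion of MT-RNR1 and MT-RNR2, and leaving out each library.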

Additional observations from a re-analysis of the deposited data

Results flagged for a closer look

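Tests of the difference between lines singled out 8 responses of the 10 genes, each given as the log2 response of sh-IGFBP6 minus that of sh-LUC, with edgeR adjusted p-values. Over all genes tested, such differences passed for 26.2% with erastin and 20.6% with DHA. With erastin, BCL2L1 differed by -0.48 (adjusted p = 3.23e-05). BCL2L11 differed by -0.72 (adjusted p = 6.54e-04) and PMAIP1 by -0.85 (adjusted p = 1.97e-06). BAX differed by -0.34 (adjusted p = 0.0227), where neither line's own response passed the test (adjusted p = 0.0636 and 0.154). The BAX difference did not pass by DESeq2 (adjusted p = 0.0616) or with library size alone (edgeR adjusted p = 0.253). Nor did it pass without certain single libraries, such as sh-LUC control 3 (edgeR adjusted p = 0.129). With DHA, BCL2L1 differed by -0.83 (adjusted p = 1e-12) and MCL1 by 0.76 (adjusted p = 2.43e-14). BBC3 differed by 1.42 (adjusted p = 1.71e-04) and TNFRSF10B by 0.47 (adjusted p = 1.98e-04). With library size alone the differences of BCL2L1 with erastin, and of MCL1 and TNFRSF10B with DHA, also did not pass.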

How the results depend on the processing

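Of 41 calls on the 10 genes over 9 comparisons, 20 kept their direction and stayed past the threshold under all 25 alternatives, 32 did so under all but scaling by library size alone, and 1 reversed. Leaving out each library gave 5 to 7 genes called for erastin and 2 to 3 for DHA in sh-LUC, 4 to 5 and 5 to 6 in sh-IGFBP6, 5 to 7 between untreated lines, 3 to 5 and 4 to 4 for the line differences with erastin and DHA, and 4 to 4 and 3 to 4 for DHA against erastin in sh-LUC and sh-IGFBP6. Counts over all genes are given below for only some settings, so no such count is read as particular to the 10 genes. With library size alone the calls were 2 for erastin and 0 for DHA in sh-LUC, 2 for erastin in sh-IGFBP6, 2 and 2 for the line differences with erastin and DHA, and 1 for DHA against erastin in sh-IGFBP6, and DESeq2 called 1 for DHA in sh-LUC. The TMM factors left out with library size alone were 0.431 in sh-IGFBP6 erastin 3 and 0.953 to 1.12 in the other libraries. The cause of these changes in calls was not tested. That scaling moved the median of all genes from -0.02 to -0.12 for erastin in sh-LUC, 0.00 to -0.19 for erastin in sh-IGFBP6, 0.01 to 0.11 between lines, 0.00 to -0.14 for the DHA line difference and 0.01 to 0.17 for DHA against erastin in sh-LUC. It moved the share of calls that were higher from 46.7% to 31.9%, 50.5% to 23.1% and 50.8% to 33.3% (erastin in sh-LUC, erastin and DHA in sh-IGFBP6), 50.6% to 26.5% (DHA line difference), 51.8% to 73.5% and 50.6% to 63.1% (DHA against erastin in sh-LUC and sh-IGFBP6). Over all genes it called 4571 and not 6967, 756 and not 2546, 2728 and not 4404, and 2579 and not 5202 (erastin and DHA in sh-LUC, then in sh-IGFBP6), 1327 and not 3973 and 1041 and not 3124 (line differences), and 1541 and not 3928 (DHA against erastin in sh-IGFBP6). DESeq2 called 1565 for DHA in sh-LUC and 2422 for DHA against erastin in sh-IGFBP6, where leaving out erastin 1 gave 2592.

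Reversed values with library size alone were 0.042 for BCL2L11 (DHA, sh-LUC), -0.069 for BID, -0.017 for TNFRSF10B and -0.13 for BIRC6 (erastin, sh-IGFBP6), 0.071 for MCL1 (lines), -0.21 for MCL1 and -0.053 for TNFRSF10B (erastin line difference) and -0.018 for BCL2L11 (DHA line difference). With no filter they were 0.053 for BCL2L11 (DHA, sh-LUC) and -0.0064 for MCL1 (erastin line difference). Leaving out libraries gave, for uncalled values near 0, -0.033 to 0.072 for MCL1, -0.11 to 0.10 for BCL2L11 and -0.17 to 0.020 for BID (DHA, sh-LUC), -0.017 to 0.62 for BCL2A1 and -0.015 to 0.24 for BCL2L11 (DHA, sh-IGFBP6), -0.055 to 0.0037 for MCL1 and -0.45 to 0.033 for BBC3 (lines), -0.0091 to 0.10 for TNFRSF10B (erastin line difference), and -0.0062 to 0.25 for BCL2L11, -0.21 to 0.082 for PMAIP1 and -0.079 to 0.053 for BAX (DHA line difference). DESeq2 left PMAIP1 and BAX with DHA in sh-LUC (adjusted p = 0.0638 and 0.0728) and in sh-IGFBP6 (0.0728 and 0.0659), TNFRSF10B with erastin in sh-IGFBP6 (0.115), BID between lines (0.0612), the BAX erastin difference (0.0616) and MCL1 for DHA against erastin in sh-IGFBP6 (0.0686) above 0.05.

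Over 45 same-numbered pairs the median correlation of deviations was 0.0046 (highest 0.106), beside 0.0012 (highest 0.068) over 90 pairs of unlike number. By average correlation, 9 of 18 libraries were closest to their own number. Whether same-numbered libraries were handled together is not given in the labels and was not tested. With the replicate block 66 of 67 values of the 10 genes kept their direction and side of the threshold, the counts of genes called were 5, 3, 5, 6, 7, 4, 4, 4 and 4 in the order above, and BAX between lines passed (0.19, edgeR adjusted p = 0.0484). Without MT-RNR1 and MT-RNR2 all 67 did. Counts over all genes with the block are not given here, so its counts of called genes are not read as particular to the 10 genes. DESeq2 gave no adjusted p for TP63 with DHA in sh-LUC. Depth limits BCL2A1 in sh-LUC, BIK, and all values of sh-IGFBP6 erastin 3.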
